A study of Rattus norvegicus with 12 samples.

Results

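The genes described here are those of the posterior pituitary lobe and of the hypothalamus above it: Avp, Oxt, Rax, Six3, Otp, Sst, Trh, Ghrh, Pomc2 and Crh. They were picked by name, and Avp was picked for its level on 1 array. Of the 10 names, 9 were carried by probes, 12 probes of the 30367 on the array and 9 gene names of 26257. Pomc2 was on no probe. The measured genes were 6, read by 8 probes: Avp, Oxt, Rax, Six3, Sst and Ghrh. Otp, Trh and Crh did not pass the filter on dim probes, which asked that 3 or more of the 12 arrays show a signal well above background.

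The study asked how dioxin given to the mother changes the messenger RNAs of the fetal pituitary. Pituitaries of fetal Wistar rats were taken on gestational day 18 and hybridised to one-colour whole-genome arrays. There were 4 groups of 3 arrays, by sex and exposure. Control fetuses are labelled only as such, with no vehicle named. Exposed fetuses are labelled TCDD, a dioxin that acts through the aryl hydrocarbon receptor. Dose and day of dosing are not in the labels, nor is it said whether an array holds 1 gland or several or which fetuses were litter mates, so the p-values measure the spread between these samples, which may be technical. No genetic change is named for any group. The labelled tissue held its defining messages: 16 of 17 endocrine markers of the pituitary passed the filter. The mean level of the 15 with a value on every array, which leaves out Pomc for 1 missing value, lay between -2.12 and -0.59. The -2.12 was on male TCDD 1. Over both sexes 14 of the 15 were lower with exposure, with a median log2 difference of -0.45 beside -0.02 over all genes, and 0 were called. The list mean was -1.528 to -1.306 on exposed female arrays and -1.075 to -0.585 on control female arrays, while the male groups overlapped.

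The posterior lobe grows from the infundibulum, a downward fold of the hypothalamic floor, while the anterior lobe comes from the roof of the mouth. The posterior lobe holds glia-like pituicytes and the endings of neurons whose cell bodies sit in the hypothalamus, so the messages of the hormones stored there are made mainly outside the gland. A dissected gland may carry a stalk or a flap of hypothalamus, and a bulk sample cannot tell fewer cells of a type from less RNA per cell. Vasopressin and oxytocin are the hormones released from the posterior lobe. Somatostatin, growth hormone-releasing hormone, thyrotropin-releasing hormone and corticotropin-releasing hormone reach the anterior lobe by blood.

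The 60-base probes of Avp and Oxt are shown first, since the results turn on how differently these neighbouring genes behaved. Both lie on chromosome 3 of the rn4 build, Avp at chr3:118205082-118205141 on the minus strand and Oxt at chr3:118194269-118194328 on the plus strand. There are 10753 bases between them. The Avp probe starts at base 450 of its transcript and was spotted 10 times on each array. The Oxt probe starts at base 50 of its transcript and was spotted once. The longest run of bases that both probes share is 6, and no capitals are used because no motif is marked.
Avp probe: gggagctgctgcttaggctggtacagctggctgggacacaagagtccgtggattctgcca
Oxt probe: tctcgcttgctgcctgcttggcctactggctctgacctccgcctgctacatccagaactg

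The promoters of the same pair follow, because the aryl hydrocarbon receptor binds DNA at a short core and the exposure acts through that receptor. They are the 250 bases upstream of each start site from RefSeq on the GRCr8 build, at chr3:138248523-138248772 on the minus strand for Avp and at chr3:138235504-138235753 on the plus strand for Oxt. Capitals mark the core GCGTG or its reverse complement CACGC, searched on both strands.
Avp promoter: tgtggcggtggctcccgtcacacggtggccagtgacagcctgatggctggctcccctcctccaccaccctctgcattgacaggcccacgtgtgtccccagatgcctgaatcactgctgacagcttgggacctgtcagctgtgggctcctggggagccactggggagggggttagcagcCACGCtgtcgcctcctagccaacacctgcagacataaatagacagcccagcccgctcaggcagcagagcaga
Oxt promoter: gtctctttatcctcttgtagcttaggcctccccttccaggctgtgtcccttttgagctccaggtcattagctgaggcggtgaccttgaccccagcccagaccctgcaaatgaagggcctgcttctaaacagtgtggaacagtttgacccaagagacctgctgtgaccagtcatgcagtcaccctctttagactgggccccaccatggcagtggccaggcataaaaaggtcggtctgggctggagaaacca
The Avp window held 1 match, 72 bases upstream of the start, and the Oxt window held none. Sequences were found for 8 of the genes, and 3 of these 8 windows held the core. Six3 had it 106 bases upstream and Sst 164 bases upstream. Among 33469 promoters of the same length 8666 held it, or 25.9%. A match is a run of letters, not a binding site shown to be used.

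Avp, the gene of vasopressin and its carrier neurophysin, was near background on 11 arrays and bright on male TCDD 1. Levels are given as log2 of the processed signal relative to the 75th percentile of the array, unless called intensities. In male controls 1, 2 and 3 Avp stood at -5.98, -6.24 and -6.11. In the male TCDD arrays it stood at -1.86, -5.61 and -5.95. Female controls read -5.79, -5.83 and -5.75, and female TCDD arrays -5.78, -5.58 and -5.70. So 1 array of 12 was high, and the other exposed males lay close to the controls.

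On male TCDD 1 the mean intensity of the Avp probe was 311.7, and its 10 spots ran from 282.05 to 338.28 with a coefficient of variation of 4.84%. On the other 11 arrays the mean intensity ran from 12.68 to 24.26. The detection limit, taken as the dimmest signal that the scanner software marked well above background, was 9.474 to 13.41 across arrays. A signal above it can still lack that mark, as did Crh on female TCDD 3, at 0.14 above it. Avp lay 0.08 to 1.18 above that limit on the 11 arrays, and 4.91 above it on male TCDD 1. On male control 2 only 3 of 9 usable spots were well above background, so that value is close to a bound. All 10 spots of male TCDD 1 were bright together, so the reading does not rest on a single spot.

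**Figure D1:**
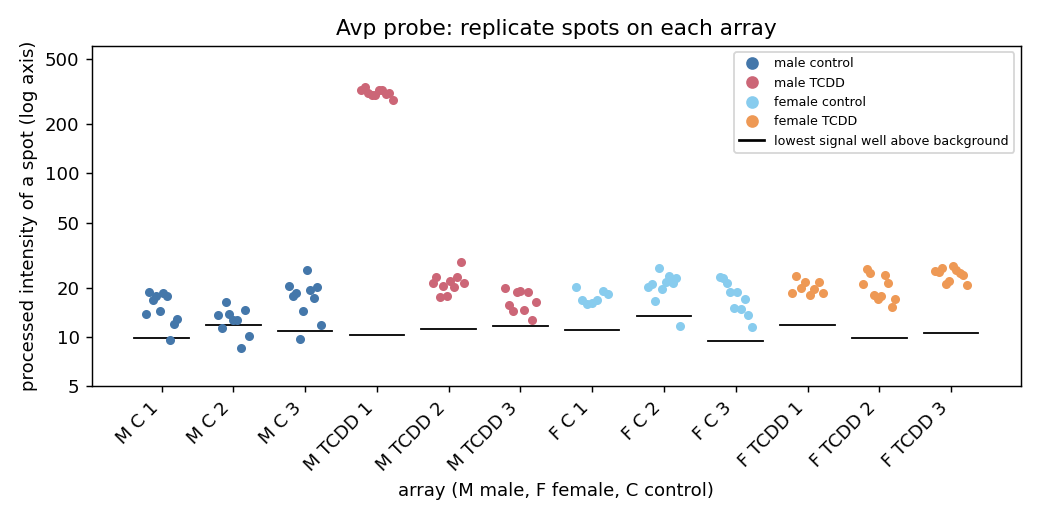
Processed intensity of each Avp spot on a log axis, by array, with the detection limit as a black line. The spots of male TCDD 1 lie between 282.05 and 338.28, and the array means of the other 11 arrays between 12.68 and 24.26.

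The level of Avp on male TCDD 1 exceeded the highest of the other arrays, female TCDD 2, by 3.72, or 13.1-fold. With normexp background correction, which lifts dim signals by an offset of 50, the gap was 1.91. Among 19318 genes with a value on every array, that gap was the largest on male TCDD 1. It was also the largest with median centring, quantile normalization and the authors' deposited value table, but took place 3 with normexp, behind Dlx5 at 2.43 and another gene. Every array has some gene that is highest there by a wide margin: on the other 11 arrays the largest gap of any gene ran from 2.79 to 4.73, the last for Ttr, the gene of transthyretin, on male control 1. Ttr was named after its values were seen. The size of the Avp gap is therefore within the range of such largest gaps. The number of such genes was larger on male TCDD 1, where 16 genes had a gap above 2 and 75 a gap above 1. On the other arrays 2 to 11 and 14 to 34 genes did.

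Among genes with a symbol, those next to Avp by gap on male TCDD 1 were Neurog1 at 3.46, S100z at 3.28, Foxn4 at 3.12 and Dlx5 at 2.76. Neurog1 is a transcription factor of sensory neuron precursors, and Dlx5 one of forebrain and placodal cells. Atp6v1b1, Slpi, Tp73, Calr4, Cartpt and Tmem213 followed, with gaps of 2.66, 2.62, 2.37, 2.37, 2.36 and 2.09. A further 3 genes with no symbol had a gap larger than that of Tmem213. Cartpt, which encodes a hypothalamic peptide also made by peripheral neurons, stood at -1.06 there and between -4.37 and -3.42 elsewhere.

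**Figure D2:**
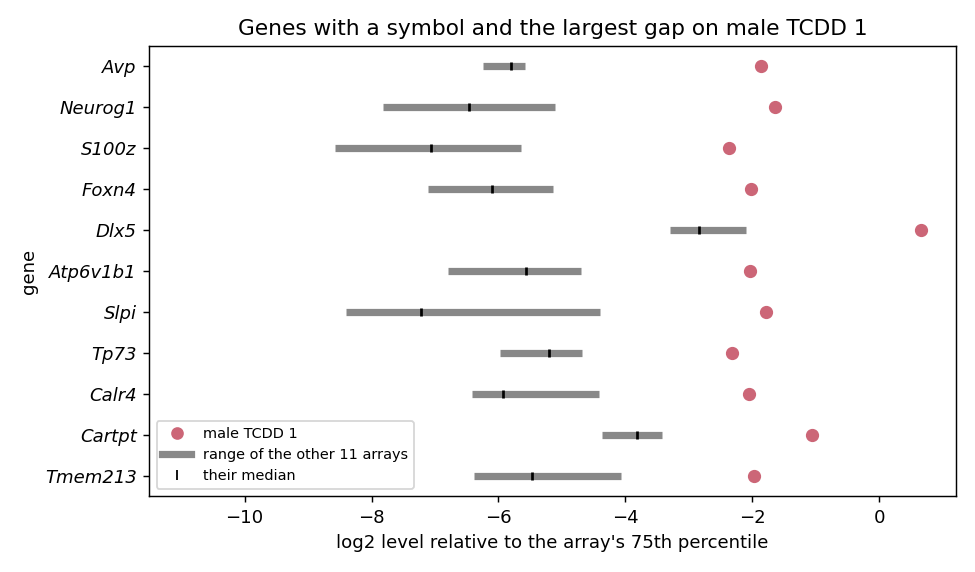
Level of the 11 genes with a symbol that had the largest gap on male TCDD 1 (point) beside the range and median of the other 11 arrays (bar and tick), log2 relative to the 75th percentile of the array. Avp leads with a gap of 3.72, and the 11 other arrays span only -6.24 to -5.58.

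Over the 12 arrays the genes whose levels were most like Avp were Atf5 (r 0.968), Cartpt (0.964), Nhlh1 (0.963), Gng8 (0.953), Lbhd2 (0.952), Ate1 (0.946), Dlx5 (0.946), Nxnl2 (0.942), Hmox2 (0.929) and Prr15 (0.926). These r values are a description over 12 arrays and rest on male TCDD 1. Without that array, r with Avp was 0.58 for Atf5, 0.58 for Cartpt, 0.50 for Nhlh1 and -0.15 for Ate1. Over the other 11 arrays the nearest genes were Snrnp48 (0.896), Nphs1 (0.878), Neurog1 (0.871) and Eid1 (0.860), at Avp levels within 1.18 of the background limit. Neurog1 was the single name near Avp in the 11-array ranking that also stood among the largest gaps. On those 11 arrays it ran from -7.82 to -5.11 with a median of -6.47, beside background limits of -6.88 to -6.31. That r therefore joins readings that are near background for both genes.

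Markers of some other tissues, not all, were high on male TCDD 1. Of all 19318 genes 22.5% were highest on that array and 31.4% lowest, more than on any other array, and the counts below are read beside these shares. Among lists of markers chosen with earlier results known, 18 of 20 sensory ganglion genes, 14 of 14 general neuron genes and 7 of 9 peripheral glia genes were highest on that array. The mean ganglion level was 1.07 there and -3.70 to 0.47 elsewhere. Of the 10 measured forebrain genes 4 were highest there, and of 15 pituitary endocrine genes 13 were lowest. Of 7 skeletal muscle, 4 cartilage and 3 erythroid genes 0 were highest there, and 1, 0 and 1 were lowest. The part of these tissues in the Avp reading was not tested.

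Other genes of hypothalamic neurons were high and low on male TCDD 1 in about equal number. Sim1, a factor of the vasopressin-producing nuclei, stood at -6.27 on that array, its lowest of all 12, against -5.02 to -3.90 elsewhere. Otp, a factor of the same neurons, was well above background on 0 arrays. Of the 23 measured hypothalamic neuron genes, 6 were highest on male TCDD 1 and 5 lowest, beside 22.5% and 31.4% of all genes. Those highest were Cartpt, Gal, Tac3, Th, Fezf1 and Magel2. Gal, the galanin gene, is expressed in many neurons and stood at 2.97 there, against -2.66 to 1.57 elsewhere. It ran from 0.63 to 2.97 on the arrays with sensory ganglion signal, as grouped below, and from -2.66 to -0.75 on the others. Tac3 and Th were likewise higher on the former without overlap, while Cartpt, Fezf1 and Magel2 overlapped. How many of all genes separate these arrays was not counted. The part of the ganglion signal in these levels was not tested.

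Among the 15 measured infundibular and pituicyte genes 5 were highest and 6 lowest on male TCDD 1, beside the same shares of all genes. Lhx2, Tbx3, Fgf18, Scn7a and Aqp4 were highest. Scn7a, Fgf18 and Aqp4 were higher on every array with sensory ganglion signal, as grouped below, than on any array without it. Scn7a ran from -1.34 to -0.14 on the former and from -4.19 to -3.49 on the latter. Lhx2 and Tbx3 overlapped between them. How many of all genes separate these arrays was not counted. Nkx2-1, a factor required for the infundibulum, was at -3.74 on male TCDD 1 and from -3.59 to -1.19 elsewhere. The mean over this list was -2.33 on male TCDD 1, inside the range of -2.56 to -2.04 of the other arrays.

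Oxt, the oxytocin gene, was well above background on all 12 arrays. Its levels were -0.81, -1.23 and -1.50 in male controls, and -1.64, -1.59 and -1.86 in male TCDD arrays. Female controls read -1.79, -1.95 and -0.999, and female TCDD arrays -1.66, -1.32 and -1.79. All exposed males were below all control males, while the female groups overlapped. On male TCDD 1, where Avp was high, Oxt was in the middle of its range, with an intensity of 364.1 against 281.94 to 535.81 over all arrays.

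The male control mean of Oxt was -1.18 ± 0.345 and the male TCDD mean -1.70 ± 0.147 (SD, n = 3 each), the female control mean -1.58 ± 0.51 and the female TCDD mean -1.59 ± 0.243. Oxt levels differed by at most 2.2-fold over the 12 arrays. The exposed males were 0.52 lower than controls on the log2 scale (SE 0.253, n = 3 against 3), which did not pass limma's test over 19350 genes (adjusted p = 0.506). In females the difference was -0.01 (SE 0.253, adjusted p = 1.0 by limma), and the male effect differed from the female one by -0.51 (SE 0.357, adjusted p = 0.881). On the mean of both sexes limma gave -0.26 (SE 0.179, adjusted p = 0.67). In males the groups did not overlap for Avp, with exposed higher, and for Oxt, with exposed lower. Over all genes 8.55% of 19318 showed the first pattern and 5.94% the second, 14.5% either. In females no measured gene had groups that did not overlap, beside 1.48% of all genes with exposed higher, 5.47% with exposed lower and 6.95% either. Since Avp was chosen for its level in these arrays, that count is a description. The Avp separation leans on small values, for without male TCDD 1 the lowest exposed male was at -5.95 and the highest control male at -5.98.

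Avp was chosen for its level on these arrays, so its differences are a description and no p-value is given for it. The difference of exposed from control males was 1.63 and of exposed from control females 0.11. Without male TCDD 1 the male difference was 0.33 and that over both sexes 0.22, against 0.87 with it. With normexp the male difference was 0.76 and that over both sexes 0.36. Male TCDD 1 lay on the slide that held all male controls, and there the male difference of Avp was 4.25, resting on that array alone. The slides split the groups: slide 1 held the male controls and male TCDD 1, slide 2 the other exposed males with female controls 1 and 2, and slide 3 female control 3 with the exposed females. Within slide 1 the male differences were -0.46 for Oxt, -0.74 for Rax, -0.33 for Six3, 0.64 for Sst and -1.07 for Ghrh, each resting on male TCDD 1 as the single exposed array. Within slide 3 the female differences were -0.59 for Oxt, -0.33 for Rax, -0.12 for Six3, -0.90 for Sst and -0.06 for Ghrh, each resting on female control 3.

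The genes most like Oxt over the 12 arrays were Rasgef1a (r 0.977), Gucy2e (0.951) and Zbtb42 (0.950). The r between Avp and Oxt was -0.15, and -0.21 without male TCDD 1. These are descriptions over arrays that share slides and groups.

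Rax and Six3 are homeobox factors of the early forebrain and eye field, and Rax is also a factor of the hypothalamus, infundibulum and pituicytes. Rax was read at chr18:62570715-62570774 and by a dimmer, overlapping probe that shares 49 bases with it. The brighter Rax probe read -4.58, -4.20 and -4.48 in male controls and -5.16, -4.89 and -3.88 in male TCDD arrays. In female controls it read -3.57, -4.15 and -4.43, and in female TCDD arrays -5.24, -4.61 and -4.43. The highest array was female control 1 and the lowest female TCDD 1, and the groups overlapped in both sexes.

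Six3 was read by a probe at chr6:9016949-9017008 (rn4) on the plus strand. It read -3.77, -3.80 and -4.22 in male controls, and -4.25, -4.20 and -3.54 in male TCDD arrays. Female controls were at -3.17, -3.81 and -3.97, and female TCDD arrays at -4.30, -4.003 and -3.97. As for the brighter Rax probe, female control 1 was highest and female TCDD 1 lowest, and male TCDD 3 was the highest exposed array. Of all genes 19.9% were highest on female control 1 and 8.6% lowest on female TCDD 1. The dimmer Rax probe was also highest on female control 1, but lowest on male TCDD 1. Over 12 arrays the brighter Rax probe and Six3 had Pearson's r 0.908 and a Spearman correlation of 0.853, and r 0.903 without male TCDD 1. For the dimmer Rax probe these values were lower, at 0.706, 0.594 and 0.667. This is a description across arrays that share slides, and no p is given.

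Neither factor was called for exposure. Over both sexes limma gave -0.47 for Rax (SE 0.25, adjusted p = 0.67) and -0.26 for Six3 (SE 0.181, adjusted p = 0.67). For females alone Rax was at -0.71 (SE 0.353, adjusted p = 1.0) and Six3 at -0.44 (SE 0.255, adjusted p = 1.0). With the dimmer Rax probe the difference over both sexes was 0.01 (SE 0.252), so the sign of the Rax value depends on the probe, although r between both probes was 0.779. Among the genes most like Rax over the 12 arrays were Tmc4 (r 0.925) and Cpa4 (0.919), and among those most like Six3 were Igsf9 (0.930) and Acvr2b (0.927).

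**Figure D3:**
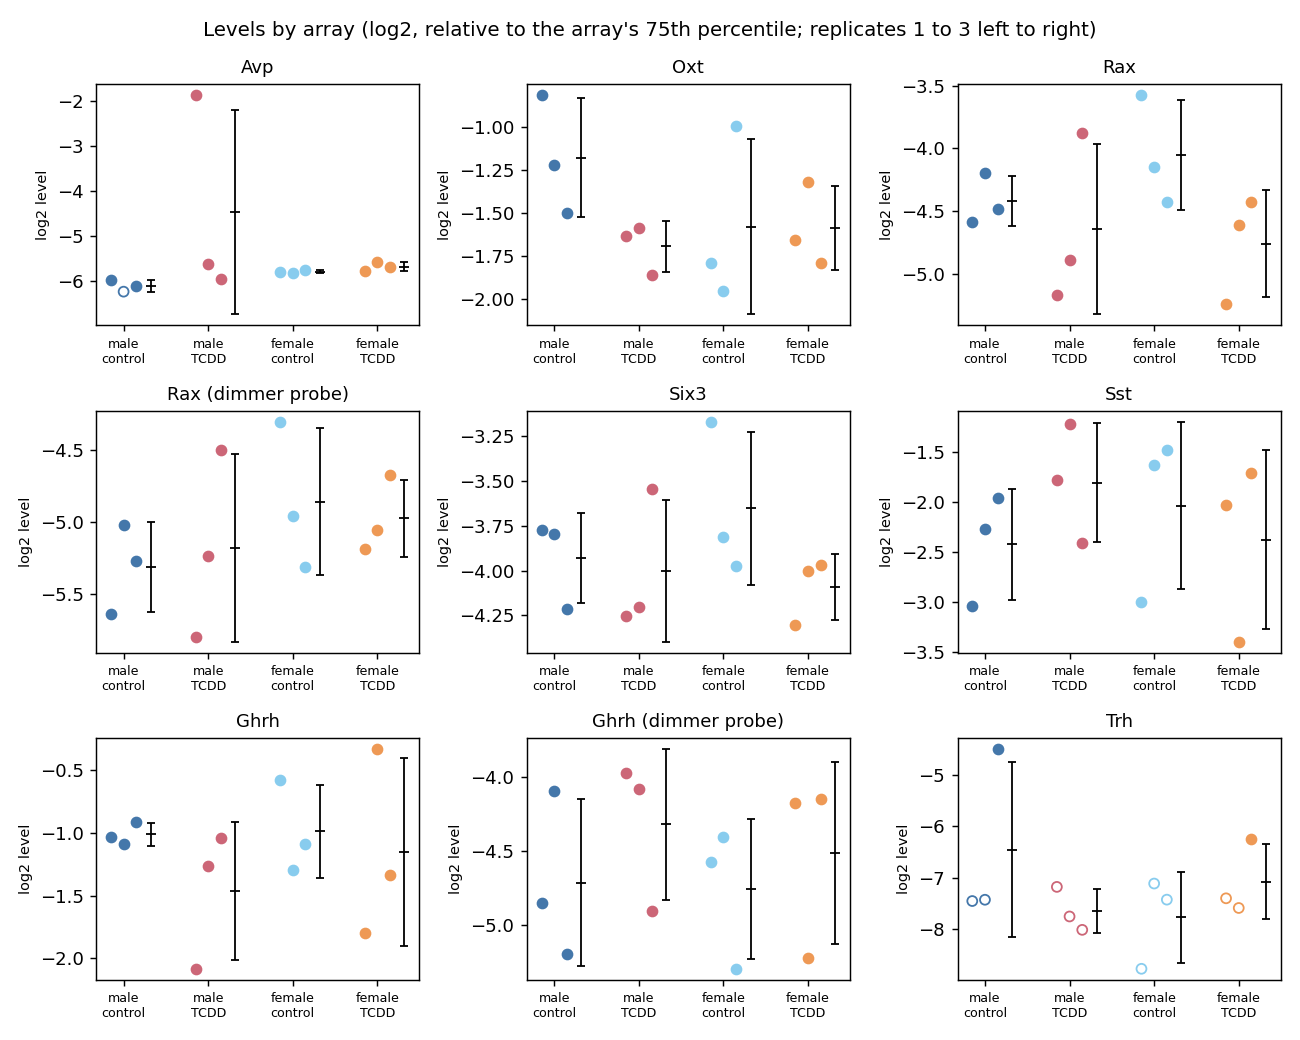
Log2 level of 9 probes relative to the 75th percentile of the array, by group, with replicates 1 to 3 from left to right and mean ± SD as the bar. Open circles are arrays on which the probe was not well above background. Avp is high only on male TCDD 1, and Trh is dim on 10 of 12 arrays.

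Sst, whose product somatostatin restrains growth hormone release, read -3.03, -2.27 and -1.96 in male controls and -1.78, -1.22 and -2.41 in male TCDD arrays. In females it read -3.00, -1.63 and -1.48 in controls and -2.02, -3.39 and -1.71 in exposed arrays. Its intensity ran from 90.82 to 451.47, and its scaled levels spanned a 4.51-fold range, which was wider than for Oxt, Rax, Six3 and Ghrh. Groups overlapped in both sexes. Exposure gave 0.62 in males (SE 0.533, adjusted p = 0.582 by limma), -0.34 in females (SE 0.533, adjusted p = 1.0) and 0.14 over both (SE 0.377, adjusted p = 0.897).

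Ghrh, which drives growth hormone release, has 2 probes at chr3:148028257-148028316 and chr3:148027237-148027296 (rn4), 960 bases apart. Both are named Ghrh on the array, but the brighter is assigned to an Ensembl transcript and only the dimmer to a RefSeq one. The gene-level fits used the brighter, and which probe reads the Ghrh message was not tested. The brighter read -1.03, -1.09 and -0.92 in male controls, and -2.08, -1.26 and -1.04 in male TCDD arrays. It read -0.58, -1.30 and -1.09 in female controls and -1.80, -0.33 and -1.33 in female TCDD arrays. The lowest array was male TCDD 1, and the highest female TCDD 2. Exposure gave -0.45 in males (SE 0.368, adjusted p = 0.568 by limma), -0.17 in females (SE 0.368, adjusted p = 1.0) and -0.31 over both (SE 0.26, adjusted p = 0.683).

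The dimmer Ghrh probe went the other way. Its intensities were 32.66, 55.14 and 32.18 in male controls and 71.98, 62.28 and 34.32 in male TCDD arrays, then 41.16, 53.93 and 23.9 in female controls and 61.38, 25.63 and 70.94 in female TCDD arrays. Over both sexes its exposure difference was 0.32 (SE 0.286, adjusted p = 0.692), and r with the brighter probe over 12 arrays was -0.673 (Spearman correlation -0.671), -0.602 without male TCDD 1. The 2 probes therefore disagree on the order of the arrays, and neither was called.

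The arrays fell into 6 with strong sensory ganglion signal (replicate 2 of each control group, replicates 1 and 2 of the exposed males, replicates 1 and 3 of the exposed females) and 6 without. The mean of the ganglion genes was -0.19 to 1.07 on the first and -3.70 to -3.17 on the second. The dimmer Ghrh probe read -4.405 to -3.975 on the first 6 and -5.293 to -4.572 on the others, with no overlap. The brighter probe went the other way, at -2.085 to -1.088 and -1.09 to -0.33, nearly without overlap. How many of all genes separate these arrays in the same way was not counted. Sst read -2.268 to -1.22 on the first and -3.393 to -1.482 on the others. The share of the ganglion signal in the levels of Ghrh and Sst was not tested. The arrays with ganglion signal were 4 of the 6 exposed and 2 of the 6 controls. Without these 6 arrays 1 exposed and 2 control arrays remained in each sex, and the male differences of Rax and Six3 were 0.66 and 0.45. In that fit limma called 0 of all genes in males, 939 having an unadjusted p under 0.05.

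**Figure D4:**
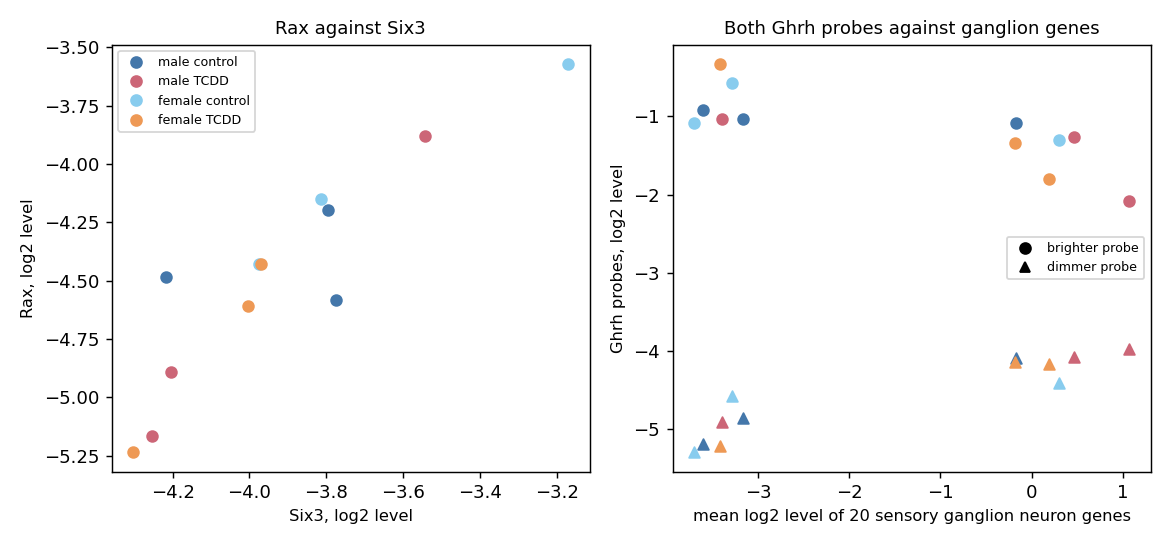
Left, log2 level of Rax against Six3 on each of the 12 arrays. Right, both Ghrh probes against the mean level of 20 sensory ganglion genes, with 6 arrays to the left and 6 to the right. Six3 and the brighter Rax probe move together (r 0.908). The dimmer Ghrh probe is higher on all 6 arrays with ganglion signal, and the brighter one is lower there with a slight overlap. How many of all genes separate these arrays was not counted.

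Trh, thyrotropin-releasing hormone, was well above background on 2 of 12 arrays, male control 3 at an intensity of 52.09 and female TCDD 3 at 16.59. On the others it ran from 2.24 to 8.25. Crh, corticotropin-releasing hormone, was well above background on 1 array by its brighter probe, male TCDD 2 at 13.4, and on 0 arrays by the probe with 10 spots. Otp was on 0 arrays, at intensities of 1.96 to 7.32. All other readings of these 3 genes were not well above background, so the groups were not compared.

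Of the measured genes other than Avp, which are 5, none passed limma's test in any of the 5 comparisons. In the same fits 2 of 19350 genes passed in males and 2 in females (0.0103% each), 4 over both sexes (0.0207%), none for the difference between the sexes (0.0%) and 2 between male and female controls (0.0103%). At an unadjusted p under 0.05 the counts over all genes were 1819, 511, 1249, 864 and 1066. A count of 0 among 5 genes is therefore close to the background. The difference in exposure effect between the sexes ranged from -0.51 for Oxt to 0.96 for Sst over these 5.

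**Figure D5:**
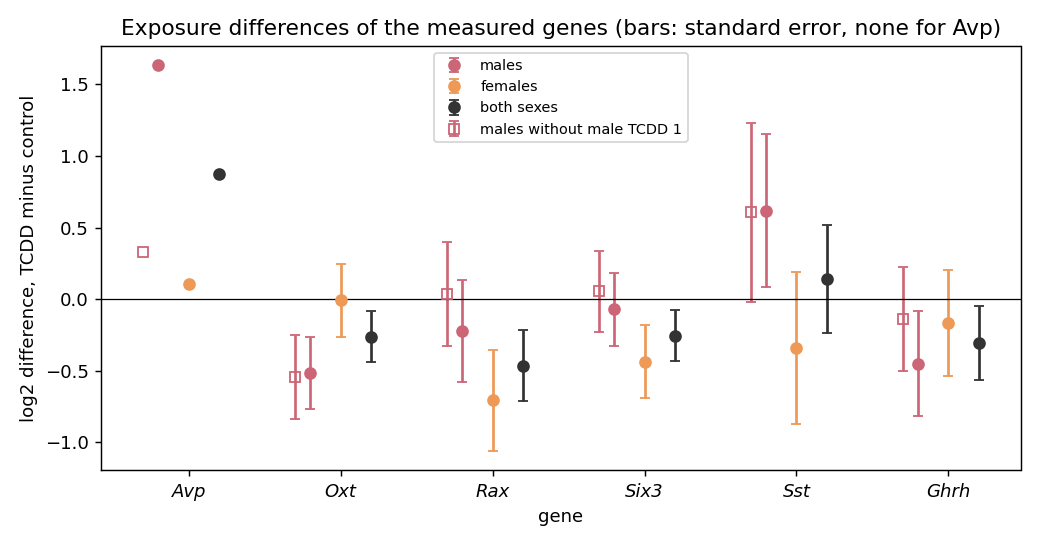
Log2 difference of TCDD from control for the 6 measured genes in males, females and both sexes, with open squares for males without male TCDD 1. Bars are the standard error, which is not drawn for Avp. The Avp male value falls from 1.63 to 0.33 without that array.

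The receptors of these peptides were read from a fixed list of 16 genes. Of these, 15 were on the array and 11 measured, and none was called in males, females or over both sexes. Over both sexes 5 were above 0 and 6 below, with a median of -0.12 beside -0.02 over all genes. Sstr2, a somatostatin receptor, read -3.87, -3.28 and -3.67 in male controls, -1.82, -2.28 and -2.46 in male TCDD arrays, -3.37, -2.69 and -3.72 in female controls and -2.38, -2.36 and -2.61 in female TCDD arrays. Every exposed array was above every control of its sex, beside 8.55% of all genes in males and 1.48% in females. How many genes showed this in both sexes was not counted. Sstr2 is named as the gene of the list with the smallest p. Its difference over both sexes of 1.11 (SE 0.187) did not pass after adjustment (adjusted p = 0.131 by limma). Crhbp, the binding protein of corticotropin-releasing hormone, was at -0.89 (SE 0.21, adjusted p = 0.518). Ghrhr, the receptor of growth hormone-releasing hormone, had the lowest value of the list, at -1.88 (SE 0.65, adjusted p = 0.67). It was well above background on 10 arrays, and read -9.07 on male TCDD 1 against -7.01 to -4.02 elsewhere. The reading on male TCDD 1 was below that array's detection limit of -6.77. The -7.01, on female TCDD 2, was below the limit of -6.59 there. Both are exposed arrays, so the Ghrhr difference rests in part on values that are only bounds. Avpr1b, the vasopressin receptor of the corticotrope, was at -0.40 (SE 0.244, adjusted p = 0.67). The median over the 15 pituitary endocrine genes was -0.45, and its part in the values of Crhbp, Ghrhr and Avpr1b was not tested. Oxtr, Crhr2, Sstr5 and Mc2r were well above background on 0 arrays.

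Among the marker lists, 0 of 15 infundibular and pituicyte genes and 0 of 23 hypothalamic neuron genes were called in males, females or over both sexes. The median differences over both sexes were -0.12 and 0.11, with 6 above 0 and 9 below in the first, and 16 above and 7 below in the second. The share of all genes above 0 was not counted. Gal, Tac3 and Th of the second list were higher on all arrays with sensory ganglion signal, and more exposed than control arrays had that signal. Its part in these differences was not tested. Pmch, the gene of melanin-concentrating hormone, was the hypothalamic gene furthest below 0, at -1.36 (SE 0.299, adjusted p = 0.438 by limma). The median over all genes was -0.02.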

How the data were processed

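The members and gene lists were chosen with earlier results of these data known. Total RNA was labelled with Cy3, per the labels' protocols. The authors' scanner files hold linear processed intensity values and 0/1 flags for spots well above background; per the file headers they come from Agilent Feature Extraction 10.7.1.1 on rn4, while version 9.5.1.1 is named in the submitters' processing notes. The authors' deposited value table, also intensity, was used as an alternative; quantile normalization was inferred from its equal distributions.

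Control spots and outlier spots were left out, the 75th percentile of an array was taken off its log2 values, and spots were averaged. A probe was kept if well above background on at least 3 of 12 arrays with at least 10 values; 22430 of 30367 were kept, giving 19350 genes, each read from its brightest probe. Ranks, gaps and marker lists used the 19318 genes with a value on every array. Names came from the reference table by accession for 18006 probes and by symbol for 3213, and from the files for 9148. Of the 42877 non-control spots on an array, 75.2% to 78.4% lay well above background and 0 were saturated. Array correlations over genes were 0.941 to 0.992. Precision is limited by the number of arrays.

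The model was limma's (3.58.1, R 4.3.3), with 4 group means over the 12 arrays and eBayes with its trend option; p-values were adjusted by Benjamini-Hochberg across 19350 genes and a call needed an adjusted p below 0.05. The method was tested on simulated data. Named beside the members were the 10 genes with a symbol most like Avp, the 10 with the largest gap on male TCDD 1, and the nearest genes of each other member, some of which are not reported here. Alternatives covered background correction, normalization, filter, probe rule, variance model, array weights, slide, replicate number and left-out arrays. Same-numbered arrays correlated from -0.695 to 0.751 in their deviations from group means. The highest r joined male control 2 and female control 2, both with ganglion signal. The lowest joined female control 2 and female TCDD 2, of which only the former had it. These values cannot show whether the numbers pair samples, and the main model used no pairing.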

Additional observations from a re-analysis of the deposited data

How the results depend on the processing

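The number of measured genes called was 0 in all 5 comparisons and kept that under most alternatives. It became 2 in males with array quality weights (Oxt and Sst), where 8549 of all 19350 genes were called. The weights of that fit did not converge, and gave male TCDD 2 a weight of 331.6 and every other array at most 1.78. It became 1, Avp, with slide as a block in males, over both sexes, for the difference between sexes and between controls. In those 4 comparisons 27, 15, 6 and 10 of all 19350 genes were called. Within slide 1, with male TCDD 1 as the single exposed array, the male difference of Avp was 4.25. All of these Avp calls rest on male TCDD 1, for which Avp was chosen, and support nothing. The Avp difference was 0.76 with normexp and 0.50 with array weights in males, and 0.36 and 0.29 over both sexes. The Avp gap on male TCDD 1 was 1.91 with normexp background correction and between 3.68 and 3.77 with the others tried. With the replicate block, no member was called in any comparison.

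Several differences, none of them called, changed sign. In males, Rax was 0.66 without the 6 arrays with ganglion signal, 0.13 by the dimmer probe and -0.61 to 0.037 with an array left out, positive without male TCDD 1. Six3 was 0.45 without the 6 arrays and -0.30 to 0.055 with an array left out, and Ghrh 0.40 by the dimmer probe. In females, Avp was -0.053 with normexp. Ghrh was 0.04 with the mean of the probes, 0.50 without the 6 arrays, 0.25 by the dimmer probe and -0.58 to 0.16 with an array left out. Oxt was 0.007 with quantile normalization, 0.004 with the authors' table, 0.076 without the 6 arrays and -0.20 to 0.28 with an array left out. Sst was 0.20 with array weights and -0.82 to 0.17 with an array left out. Over both sexes, Ghrh was 0.006 with the mean of the probes, 0.22 without the 6 arrays and 0.32 by the dimmer probe. Rax was 0.023 without the 6 arrays and 0.008 by the dimmer probe, and Six3 0.01 without the 6 arrays. Sst was -0.13 with slide as a block, -0.53 without the 6 arrays and -0.10 to 0.39 with an array left out. The causes were not tested. The dimmer-probe alternative was chosen after seeing the data.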
